A study of Homo sapiens with 6 samples.

Results

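The genes described here are 9 genes of the YAP and TEAD pathway, CTGF, CYR61, ANKRD1, AMOTL2, AJUBA, LATS2, YAP1, WWTR1 and TEAD1, out of 58735 genes in the expression table. They were matched by gene name, and each name matched 1 gene. CTGF is the older name of CCN2 and CYR61 that of CCN1. The set was put together because CTGF was among the genes with the largest decrease after irradiation, so the change of these 9 genes between the groups is given as a description, with no p-value. How many of them passed the threshold of the fit over all genes is given only beside the same share of all genes. All 9 passed the filter on low values, which was a mean of 1 FPKM or more and left 12128 genes. FPKM counts the fragments assigned to a gene per kilobase of its length and relative to the depth of the library. Levels of genes of unequal length can thus be compared only approximately, since they rest on the deposited gene length. How well that length fits the transcripts in these cells was not tested. Differences between libraries also ran with gene length, as given with TEAD1 below.

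The cells were MDA-MB-231, a human line from a basal-like, triple-negative breast cancer. RNA was sequenced from 3 samples without irradiation (0 Gy) and from 3 samples taken 24 h after 10 Gy of gamma irradiation from a 137Cs source. The labels call all 6 libraries SCR and give their genotype as WT. The study describes its shSCR cells as a non-targeting control and lists its deposited RNA-sequencing as that of shSCR and shMAFF cells, so both groups would share the shSCR background. The study's text does not describe the irradiated cells, and the sources do not say whether the replicates were separate cultures, so p-values measure only the spread between these libraries.

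YAP (YAP1) and TAZ (WWTR1) are paired coactivators at the end of the Hippo pathway. When the LATS kinases phosphorylate them they are kept in the cytoplasm or degraded, and when they are not phosphorylated they enter the nucleus and bind TEAD factors, which hold the DNA. The pathway responds to cell density, cytoskeletal tension and serum lipids, and in breast cancer cells it is known for driving growth and invasion. The secreted matricellular proteins CTGF and CYR61 and the ankyrin repeat protein ANKRD1 are the target genes most often used to read its activity. AMOTL2, AJUBA and LATS2 are also components of the pathway: LATS2 and the angiomotin AMOTL2 hold YAP back and are themselves targets, while the LIM protein AJUBA restrains LATS kinases at junctions. Since protein levels, phosphorylation and location were not measured, the values below are RNA levels only.

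CTGF was the gene that led to the choice of the set, and its promoter is the classical TEAD-bound example. The sequence directly before the gene is shown with the core of the TEAD motif, GGAATG or its reverse complement CATTCC, in capitals. It covers chr6:131951374-131951622 on GRCh38 (RefSeq, GRCh38.p14), minus strand, written 5′ to 3′ towards the gene. The 249 bases hold 3 matches, at 169 to 164, 104 to 99 and 95 to 90 bases before the RefSeq transcript start.
CTGF upstream: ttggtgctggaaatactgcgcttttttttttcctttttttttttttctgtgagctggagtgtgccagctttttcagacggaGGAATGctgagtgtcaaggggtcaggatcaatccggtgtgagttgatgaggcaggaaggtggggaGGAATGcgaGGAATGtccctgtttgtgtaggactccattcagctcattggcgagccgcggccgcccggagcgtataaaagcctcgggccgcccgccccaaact

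RefSeq windows of 250 bases before the start were at hand for 7 of the 9 genes, 10 windows in all. There was none for CYR61 or TEAD1, so neither was searched. At least 1 TEAD core was held by 5 of the 10 windows and by 5 of the 7 genes. Among all 35116 windows of that length, 11.9% held a match on either strand, 0.94% held at least 2 and 0.0826% held at least 3. By gene, 5 of 12 targets, 7 of 32 regulators and 6 of 16 SRF genes with a window, from the lists described below, also held a match. ANKRD1 held 2 matches, and AMOTL2, AJUBA and YAP1 held 1 each. AMOTL2 and AJUBA had 2 windows each, and only the one farther downstream held the match. The windows of LATS2 and WWTR1 held none. The stretches of 30 bases around the matches of the 4 other genes are shown to set them beside CTGF, with the core in capitals.
ANKRD1 distal match (chr10:90921290-90921319, minus strand): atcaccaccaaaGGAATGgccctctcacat
ANKRD1 proximal match (chr10:90921198-90921227, minus strand): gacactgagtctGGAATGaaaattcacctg
AMOTL2 match (chr3:134374499-134374528, minus strand): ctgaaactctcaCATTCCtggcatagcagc
AJUBA match (chr14:22976884-22976913, minus strand): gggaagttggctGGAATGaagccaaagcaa
YAP1 match (chr11:102110273-102110302, plus strand): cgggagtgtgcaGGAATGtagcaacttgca

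The AMOTL2 match is the only one of these read as CATTCC. In GENCODE 29, the stretches around the CTGF, distal ANKRD1 and YAP1 matches lie outside the gene, whereas those of AMOTL2 and AJUBA and the proximal one of ANKRD1 overlap an annotated exon of the same gene. The window of ANKRD1 also held an AP-1 motif (TGANTCA, searched on both strands), found in 6.57% of all windows, at 195 to 189 bases before the start. No window of the 7 genes searched, which leave out CYR61, held a CArG box, the motif of SRF. Of all windows, 1.16% held it. Matches are letters in a window, and binding was not measured. Several of these genes are in the set because they are known targets, so the share with a match is a description of the set.

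The unirradiated cells expressed all 9 genes, over a wide range of levels per length. CYR61 was at 763 ± 62.0 FPKM (SD, n = 3), ANKRD1 at 309 ± 6.72 and CTGF at 119 ± 9.08. CYR61 was the 26th most abundant of the 12128 genes at 0 Gy. AJUBA at 65.8 ± 1.11, AMOTL2 at 44.4 ± 1.92, YAP1 at 38.6 ± 0.990 and TEAD1 at 31.5 ± 3.49 FPKM followed, and WWTR1 at 14.5 ± 0.395 and LATS2 at 11.9 ± 0.345 FPKM were lowest. No 2 neighbours in this order overlapped among the libraries at 0 Gy. The order at 10 Gy differed only in that TEAD1 (37.9 FPKM) stood above YAP1 (37.1 FPKM). Within this cell line, the targets ANKRD1 and CYR61 were thus represented by many more fragments per kilobase than the coactivators.

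After irradiation, CTGF stood at 0.486 times its level, and CYR61, ANKRD1 and AJUBA were also lower. AMOTL2 was lower by less, LATS2, which like AMOTL2 is both a component and a target of the pathway, differed by 0.03 on the log2 scale, the coactivators YAP1 and WWTR1 by less than 0.10 each, and TEAD1 was higher. Over the whole table, 35.6% of the 12128 genes passed an adjusted p of 0.05 (limma, Benjamini-Hochberg over all genes), 23.7% lower and 11.9% higher at 10 Gy. Of the 9 genes, 6 passed it, 5 lower (CTGF, CYR61, ANKRD1, AJUBA and AMOTL2) and 1 higher (TEAD1). CTGF, CYR61, ANKRD1 and AJUBA were also lower by at least 1.3-fold, against 2.95% of all genes, and none of the 9 was higher by that much, against 2.82%. Under 4 other scalings of libraries, AJUBA was lower by less than 1.3-fold, with log2 differences of -0.35 to -0.27. With TPM scaling, TEAD1 was higher by more than 1.3-fold (0.40). The groups did not overlap for 8 of the 9 genes, 6 lower and 2 higher, against 51.9% of all genes, 32.8% lower and 19.1% higher. Since the genes were chosen on this contrast, nothing is read from these counts. The median log2 difference was -0.16 over the 9 genes and -0.04 over all genes.

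**Figure D1:**
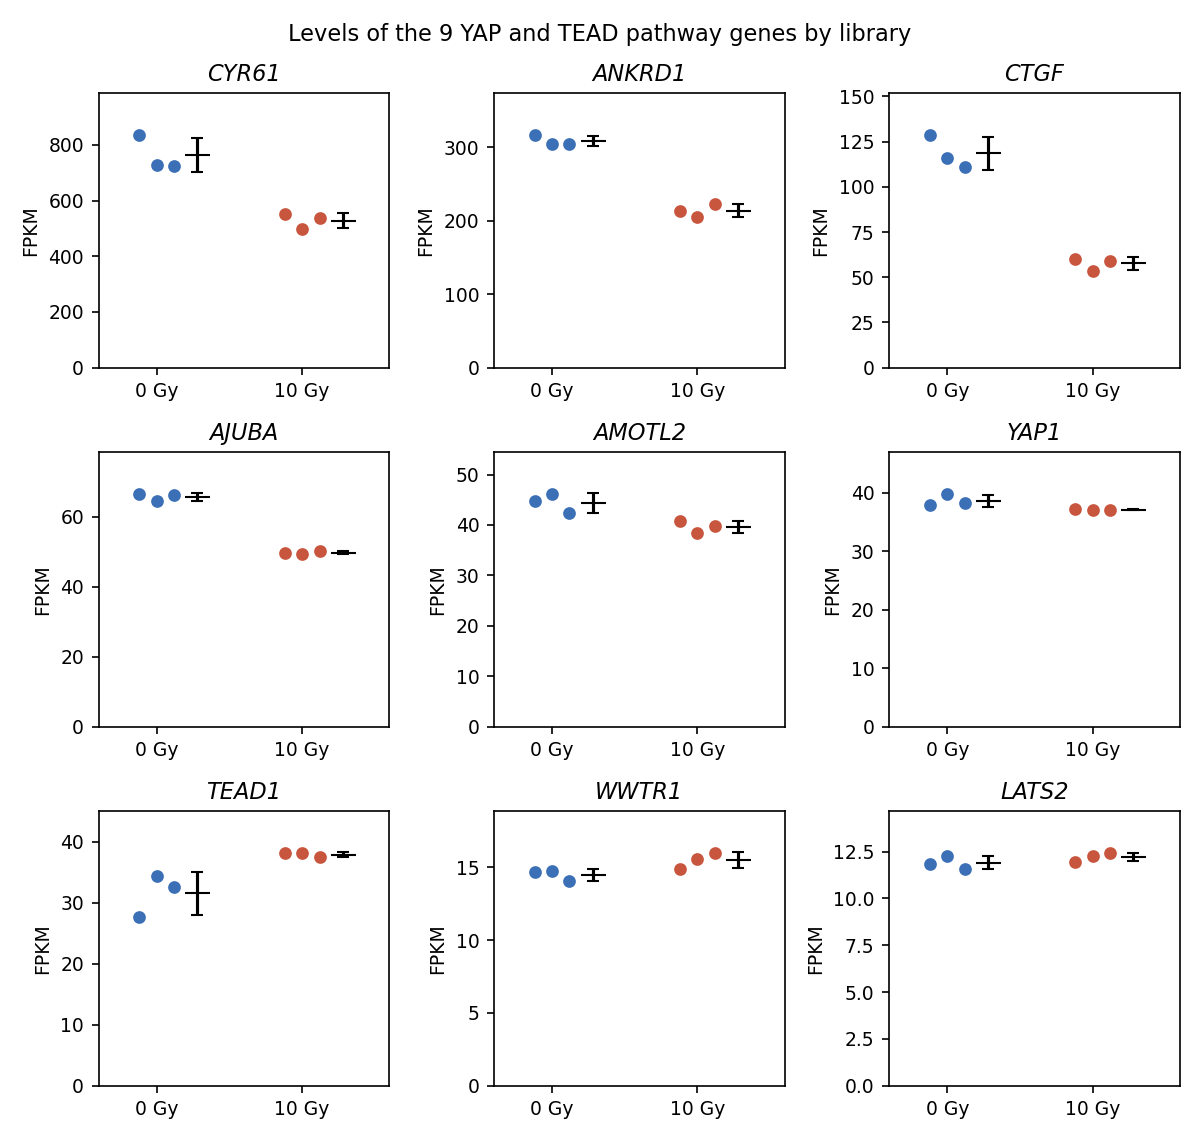
FPKM (vertical axes, starting at 0 and differing between panels) of each of the 9 genes in the 3 libraries at 0 Gy (blue) and the 3 at 10 Gy (red), with the mean and SD beside the points in black. Relative to their level, the groups are farthest apart for CTGF, 119 against 57.6 FPKM, and overlap only for LATS2.

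CTGF (ENSG00000118523, chr6:131948176-131951373, minus strand) encodes a secreted protein that binds matrix and integrins and promotes fibrosis. Its level was 129, 116 and 111 FPKM in the 3 libraries at 0 Gy and 60.4, 53.4 and 59.2 FPKM in the 3 at 10 Gy. The groups did not overlap, with 111 FPKM in the lowest library at 0 Gy and 60.4 FPKM in the highest at 10 Gy. The mean at 10 Gy was 0.486 times that at 0 Gy, and the difference on log2(FPKM + 1), the scale of all log2 differences here, was -1.03 ± 0.0668 (SE). These levels rest on 4177 to 6411 reads at 0 Gy and 2278 to 4222 reads at 10 Gy. CTGF was chosen for its large decrease, so its place in the order of decreases restates that choice and is a description. It was at place 8 of 12128 genes, at place 3 of the 10491 protein-coding ones and at place 1 of the 889 genes whose mean reached 50 FPKM. Its nearest neighbours in that order were MIR6090, with a log2 difference of -1.03, and the chemokine gene CXCL2, with -1.00. In bulk RNA, fewer cells expressing a gene and less RNA of it per cell cannot be told apart.

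CYR61 (ENSG00000142871, chr1:85580761-85583962, plus strand) encodes the closest functional relative of CTGF, a secreted integrin ligand. It stood at 835, 729 and 726 FPKM at 0 Gy and at 551, 498 and 536 FPKM at 10 Gy. All 3 irradiated libraries were below all 3 unirradiated ones, at a ratio of means of 0.693 and a log2 difference of -0.53 ± 0.0697. The relative difference was smaller than for CTGF. The ratio of CYR61 to CTGF FPKM within a library, which does not depend on the scaling of libraries, was 6.44 ± 0.147 at 0 Gy and 9.17 ± 0.139 at 10 Gy, without overlap.

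ANKRD1 (ENSG00000148677, chr10:90912096-90921276, minus strand) encodes a nuclear and sarcomeric ankyrin repeat protein. Its FPKM were 316, 304 and 305 at 0 Gy and 213, 205 and 223 at 10 Gy. The groups did not overlap, with a ratio of means of 0.692 and a log2 difference of -0.53 ± 0.042. The proportion of CYR61 to ANKRD1 did not move beyond the spread between libraries, with 2.47 ± 0.145 FPKM of CYR61 per FPKM of ANKRD1 at 0 Gy and 2.47 ± 0.0968 at 10 Gy, with overlapping groups. The ratio of ANKRD1 to CTGF went from 2.61 ± 0.146 to 3.71 ± 0.161.

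AJUBA (ENSG00000129474, chr14:22971174-22982642, minus strand) was at 66.5, 64.5 and 66.3 FPKM at 0 Gy and at 49.8, 49.4 and 50.3 FPKM at 10 Gy. The libraries of each group lay close together and the groups stood well apart, with a ratio of means of 0.758 and a log2 difference of -0.39 ± 0.0282. Of its relatives, LIMD1 was at 5.38 ± 0.345 and 5.95 ± 0.0820 FPKM and did not pass the test (limma, log2 difference 0.12), although it passed as higher under the 4 other scalings (0.17 to 0.26), and WTIP was under 1 FPKM in every library and was not tested. AJUBA therefore made up 91.8% ± 0.505 of the FPKM of these 3 genes at 0 Gy and 88.2% ± 0.219 at 10 Gy.

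AMOTL2 (ENSG00000114019, chr3:134355874-134375479, minus strand), an angiomotin that ties YAP to junctions and actin, was at 44.7, 46.1 and 42.3 FPKM at 0 Gy and at 40.8, 38.4 and 39.9 FPKM at 10 Gy. The groups were separate by a narrow gap, with a ratio of means of 0.895 and a log2 difference of -0.16 ± 0.041. This difference depended on how libraries were scaled and lay between -0.11 and -0.03 under 4 other scalings, none of which passed the threshold. AMOTL2 supplied 82.8% ± 1.06 of angiomotin family FPKM at 0 Gy and 80.01% ± 0.796 at 10 Gy, AMOTL1 nearly all of the rest, and AMOT was at 0.0217 FPKM or below in every library. AMOTL1 was at 9.18 ± 0.346 and 9.89 ± 0.212 FPKM and did not pass the test (log2 difference 0.10), although it passed as higher under the 4 other scalings (0.14 to 0.23).

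LATS2 (ENSG00000150457, chr13:20973032-21061547, minus strand), a kinase that phosphorylates YAP and TAZ, was the only one of the 9 genes whose groups overlapped. Its levels were 11.8, 12.3 and 11.6 FPKM at 0 Gy and 11.96, 12.3 and 12.4 FPKM at 10 Gy, a log2 difference of 0.03 ± 0.0351. The other kinase of this step, LATS1, was at 5.59 ± 0.360 and 5.997 ± 0.105 FPKM and did not pass the test (log2 difference 0.09), although it passed as higher under 1 of the 4 other scalings. The ratio of LATS2 to LATS1 was 2.13 ± 0.148 at 0 Gy and 2.04 ± 0.0721 at 10 Gy, with overlapping groups.

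YAP1 (ENSG00000137693, chr11:102110461-102233423, plus strand) was at 37.9, 39.8 and 38.3 FPKM at 0 Gy and at 37.2, 37.1 and 37.1 FPKM at 10 Gy. The irradiated libraries were all slightly below the others, by a log2 difference of -0.06 ± 0.0299, but the sign was positive under 3 of the 4 other scalings. WWTR1 (ENSG00000018408, chr3:149517235-149736714, minus strand) was at 14.6, 14.8 and 14.0 FPKM at 0 Gy and at 14.9, 15.6 and 15.96 FPKM at 10 Gy. Its irradiated libraries were all slightly above, by 0.09 ± 0.0383 on the log2 scale, and by 0.13 to 0.22 under the other scalings. The proportion of the 2 coactivators is not affected by the scaling of libraries. YAP1 FPKM was 2.67 ± 0.0749 times WWTR1 FPKM at 0 Gy and 2.40 ± 0.0910 times at 10 Gy, without overlap. Differences between doses also ran with gene length, as given below, and the part of this in the proportion was not tested. Neither coactivator moved by as much as the 4 genes CTGF, CYR61, ANKRD1 and AJUBA.

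TEAD1 (ENSG00000187079, chr11:12674591-12944483, plus strand) encodes one of the 4 TEAD factors. It was at 27.7, 34.4 and 32.5 FPKM at 0 Gy and at 38.1, 38.1 and 37.5 FPKM at 10 Gy. With the values as deposited, TEAD1 was the only gene of the set higher at 10 Gy by more than 0.10 on the log2 scale. Its difference was 0.26 ± 0.0728, with a ratio of means of 1.20. Under the 4 other scalings WWTR1 was higher by 0.13 to 0.22 and LATS2 by 0.08 to 0.16. The first library at 0 Gy stood below the other 2 for TEAD1. Without that library the log2 difference was 0.17, and without another of the 6 it lay between 0.26 and 0.33. It did not pass the threshold of the fit over all genes without any 1 of the 3 libraries at 10 Gy. The first library at 0 Gy also differed from the other 2 by gene length. Its median log2 difference from them was 0.0979 for genes shorter than 2500 bases and -0.0754 for genes of at least 10000 bases, the class of TEAD1, and the part of this in the values of TEAD1 was not tested. CTGF, CYR61 and ANKRD1 belong to the shortest class and were highest in that library. Without it, their log2 differences were -0.97, -0.46 and -0.51. Between doses, the median log2 difference also ran with gene length, from -0.0844 in the shortest class to 0.0465 in the longest. Without the first library at 0 Gy these medians were -0.0639 and 0.0192, so leaving it out did not remove the relation with length. The part of this relation in the values of single genes was not tested.

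**Figure D2:**
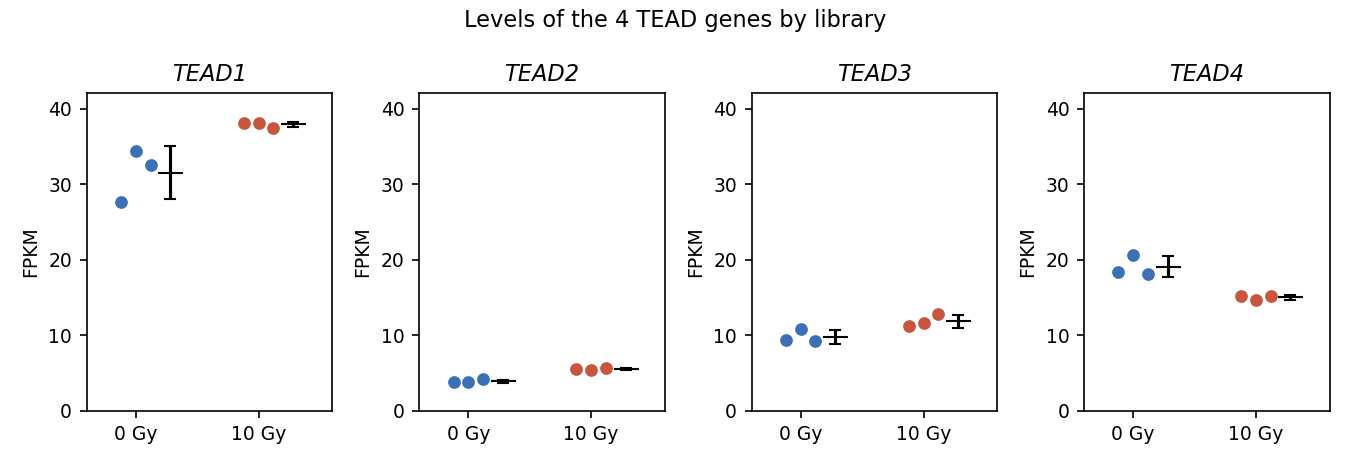
FPKM (vertical axes, starting at 0) of the 4 TEAD genes in the 3 libraries at 0 Gy (blue) and the 3 at 10 Gy (red), with the mean and SD in black. TEAD4 is lower at 10 Gy (19.1 against 15.0 FPKM), and TEAD1, TEAD2 and TEAD3 are higher.

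The other TEAD genes moved in different directions. TEAD4 was at 18.3, 20.7 and 18.1 FPKM at 0 Gy and at 15.1, 14.6 and 15.2 FPKM at 10 Gy, and fell by 0.32 ± 0.0523 on the log2 scale (limma, adjusted p = 0.00414). TEAD2, the least abundant, was at 3.74, 3.82 and 4.15 FPKM and then at 5.54, 5.33 and 5.69 FPKM, and rose by 0.41 ± 0.0491 (adjusted p = 0.00151). TEAD3 was at 9.31, 10.8 and 9.22 FPKM and then at 11.2, 11.5 and 12.8 FPKM, and rose by 0.25 ± 0.0708 (adjusted p = 0.0295), although it passed the test in only 2 of the 6 fits that left out a library. TEAD2, TEAD3 and TEAD4 passed with the same sign under the 4 other scalings. TEAD1 made up 49.0% ± 2.01 of summed TEAD FPKM at 0 Gy and 53.9% ± 1.14 at 10 Gy, while TEAD4 made up 29.7% ± 1.37 and then 21.3% ± 0.331. The sum over the 4 genes was 64.3 ± 5.34 FPKM at 0 Gy and 70.3 ± 0.836 FPKM at 10 Gy, with overlapping groups.

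Of the CCN family beside CTGF and CYR61, only NOV was expressed above 1 FPKM. It was at 3.98, 4.19 and 4.46 FPKM at 0 Gy and at 3.39, 3.07 and 3.28 FPKM at 10 Gy, and fell by 0.29 ± 0.0546 on the log2 scale (limma, adjusted p = 0.00701). NOV was thus lower in all 3 irradiated libraries, as CTGF and CYR61 were, at a much lower level. WISP1 was listed at 0 in every library, and WISP2 and WISP3 were at 0.115 FPKM or below.

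**Figure D3:**
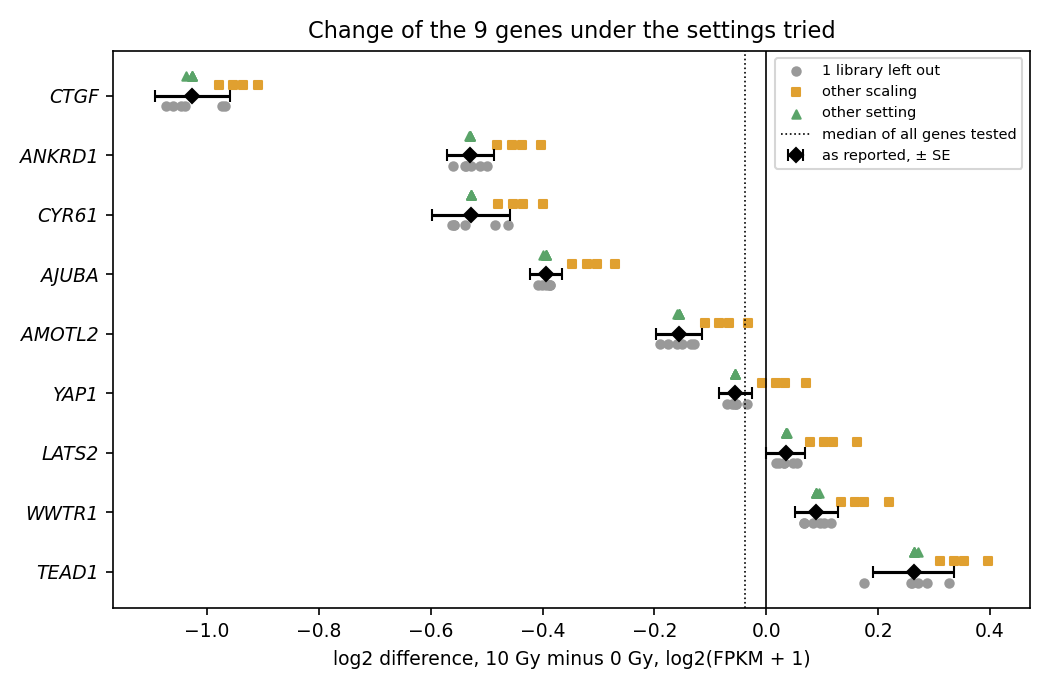
Log2 difference of FPKM + 1 between 10 Gy and 0 Gy (horizontal axis) for each of the 9 genes, as reported with its SE (black), with 1 library left out (grey), under 4 other scalings of libraries (orange) and under other settings (green). The dotted line is the median of all genes tested, -0.04. CTGF, ANKRD1, CYR61 and AJUBA stay at -0.27 or below under every setting shown, whereas YAP1 lies on either side of 0.

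Over the 15 alternatives, the log2 difference lay between -1.07 and -0.91 for CTGF, between -0.56 and -0.40 for CYR61 and for ANKRD1, and between -0.41 and -0.27 for AJUBA. It lay between -0.19 and -0.03 for AMOTL2, between -0.07 and 0.07 for YAP1, between 0.02 and 0.16 for LATS2, between 0.07 and 0.22 for WWTR1 and between 0.17 and 0.40 for TEAD1. All of these come from the same 6 libraries, on which the genes were chosen, and are no independent support.

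Other genes known as YAP and TAZ targets in many cancers were taken from a list of 17 genes that holds none of the 9. This list and those below were chosen with earlier results of these data known and give no independent support. Of the 16 tested, 9 fell, 1 rose and 6 did not pass (limma, adjusted over all genes), where 23.7% of all genes fell and 11.9% rose. The median log2 difference was -0.20 over the list and -0.04 over all genes. Scaling to TPM, which moved the median of all genes by 0.115 on the log2 scale, gave 6 lower and 3 higher. Over all 12128 genes it gave 1066 lower and 3113 higher. With the values as deposited but the filter raised to 5 FPKM, 2734 of 7262 genes fell and 874 rose. A larger share of genes thus fell than under the main filter, and the median log2 difference over these genes was -0.08. Of the 14 targets kept by this filter, 8 fell and 1 rose. The largest changes were those of FJX1, a secreted growth regulator, from 70.0, 60.7 and 67.5 to 41.9, 40.2 and 41.4 FPKM (log2 difference -0.67 ± 0.0533, adjusted p = 0.000593), and of the stress-response gene GADD45A, from 32.7, 26.7 and 31.1 to 19.1, 17.6 and 19.2 FPKM (-0.66 ± 0.0744, adjusted p = 0.00122). Both fell to a similar extent in all 3 irradiated libraries. F3, which encodes tissue factor, was at 109, 110.4 and 108 FPKM and then at 72.0, 66.9 and 71.6 FPKM (-0.63 ± 0.037, adjusted p = 0.000286). AXL, a receptor tyrosine kinase, was at 254, 262 and 261 FPKM and then at 189, 180.5 and 183 FPKM (-0.49 ± 0.0348, adjusted p = 0.000445). These 4 fell and passed the test under each of the 4 other scalings and in each of the 6 fits without 1 library. All of the 4 had separate groups, as had 32.8% of all genes on the lower side. These 4 were named for their large differences, so their separation is a description. Their decreases were smaller than that of CTGF and larger than that of AJUBA.

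**Figure D4:**
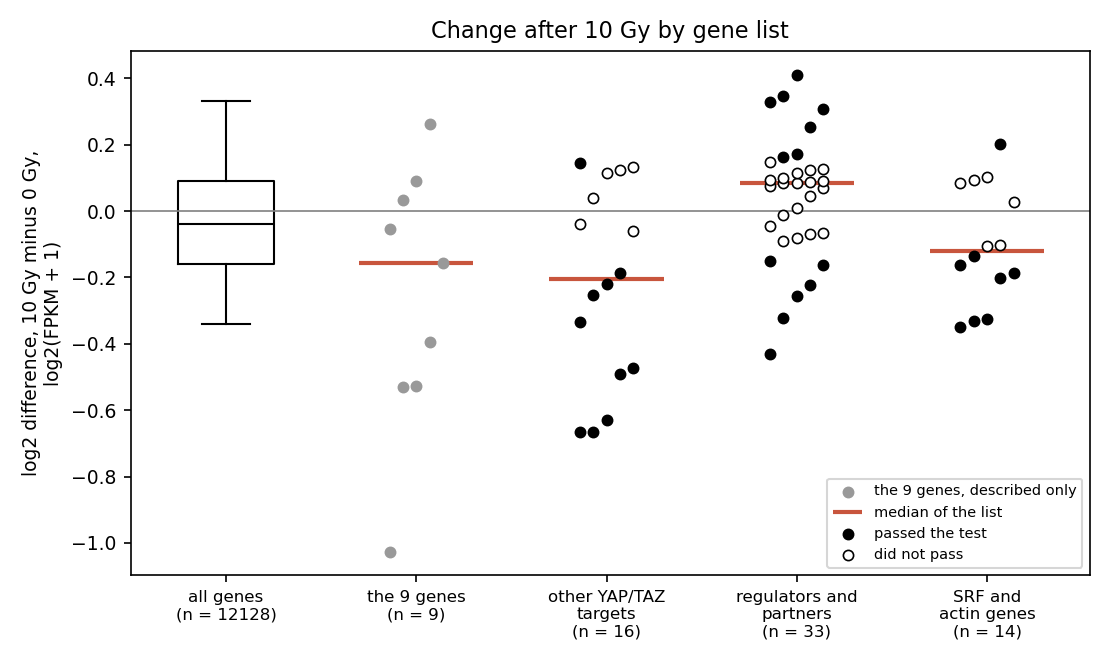
Log2 difference of FPKM + 1 between 10 Gy and 0 Gy (vertical axis) for all 12128 genes tested (box with the median and quartiles, whiskers at the 5th and 95th percentiles), for the 9 genes (grey, described only) and for the genes of 3 lists (filled, passed the test; open, did not pass), with the median of each list as a red bar. The list of other targets has its median at -0.20, and the list of regulators and partners at 0.08.

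Genes that act upstream of YAP and TAZ or with TEAD factors were counted next. Of 33 tested genes among 39 Hippo regulators and TEAD partners outside the 9, 6 fell, 7 rose and 20 did not pass, with a median log2 difference of 0.08 against -0.04 over all genes. The share that passed was near that of all genes, 35.6%, so this count is not a result about the list. PTPN14 is in this list and in that of targets. The split of the regulator list depended on the scaling, at 2 lower and 17 higher with TPM scaling and 4 and 14 with upper quartile scaling. Over all 12128 genes the split was 1066 lower and 3113 higher with TPM scaling, and 1444 and 2556 with upper quartile scaling. FRMD6, a cortical adaptor that activates the pathway, went from 36.5, 38.7 and 37.6 FPKM to 27.8, 26.9 and 28.3 FPKM (log2 difference -0.43 ± 0.0349, adjusted p = 0.000593). With the values as deposited, on the log2(FPKM + 1) scale, FRMD6 was the only gene of this list that fell by at least 1.3-fold. TEAD2, given above, was the only one that rose by that much, although the ratio of mean FPKM of MAP4K2 was 1.36. The kinases TAOK1, from 9.25, 11.2 and 11.2 to 13.7, 13.8 and 13.4 FPKM (0.35 ± 0.0697, adjusted p = 0.00925), and MAP4K2, from 2.51, 2.47 and 2.72 to 3.49, 3.50 and 3.45 FPKM (0.33 ± 0.0494, adjusted p = 0.00316), both rose. FRMD6, TAOK1 and MAP4K2 passed with the same sign under the 4 other scalings. There TAOK1 rose by 0.39 to 0.49, past 1.3-fold, and FRMD6 lay between -0.38 and -0.31, the latter short of 1.3-fold.

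CTGF, CYR61 and ANKRD1 are also known targets of SRF and its actin-sensing coactivators, so genes of SRF and actin were counted too. Of 14 tested among 19, 7 fell, 1 rose and 6 did not pass, with a median log2 difference of -0.12 against -0.04 over all genes, where 23.7% fell and 11.9% rose. None was past 1.3-fold on the log2(FPKM + 1) scale, although the ratio of mean FPKM of TPM1 was 0.754. With TPM scaling 3 fell and 4 rose, where 1066 of all 12128 genes fell and 3113 rose. The split between lower and higher thus depended on the scaling, in this list and over all genes. With the filter raised to 5 FPKM, 6 of the 12 listed genes kept fell and 1 rose. Over all 7262 genes kept, 2734 fell and 874 rose. ACTB, the cytoplasmic actin, went from 1476, 1391 and 1372 to 1141, 1092 and 1089 FPKM (-0.35 ± 0.0532, adjusted p = 0.00327). The tropomyosin TPM1 was at 5.08, 5.07 and 5.01 and then at 4.07, 3.67 and 3.69 FPKM (-0.33 ± 0.0477, adjusted p = 0.00274), and FLNA, a filamin that crosslinks actin, was at 395, 430 and 425 and then at 339, 332 and 326 FPKM (-0.32 ± 0.0449, adjusted p = 0.00247). TPM2, another tropomyosin, rose by 0.20 ± 0.0512 (adjusted p = 0.021), and passed in only 2 of the 6 fits without 1 library. ACTB, TPM1, FLNA and TPM2 kept their sign under the 4 other scalings.

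Across the 6 libraries, PA2G4, PLAC8, PHAX and PNP were among the 5 genes whose log2(FPKM + 1) followed CTGF most closely, out of the 4780 whose mean reached 10 FPKM, with Pearson r between 0.999 and 1.000. Of the other 8 genes, ANKRD1 came nearest, with an r of 0.995 at place 53, followed by CYR61 (0.990, place 148), AJUBA (0.989, place 151) and AMOTL2 (0.915, place 1432). TEAD1 (-0.87), WWTR1 (-0.76) and LATS2 (-0.54) ran the other way, and YAP1 had an r of 0.762. With 3 libraries in each of 2 groups, these values mostly restate the difference between doses and are a description.

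Depth and marker levels of the libraries were as follows. Reads recovered from the FPKM were between 15643641 and 28861781 per library. All 5 markers chosen for a basal-like, mesenchymal breast line were expressed (VIM, CD44, EGFR, MSN and CAV1). Their summed level was 724 to 738 FPKM at 0 Gy and 627 to 642 FPKM at 10 Gy. VIM, with a mean of 301 FPKM, and MSN, with 206 FPKM, were the highest at 0 Gy. Of the markers of luminal epithelium 1 of 5 reached a mean of 1 FPKM, with 3.17 to 3.55 FPKM in sum at 0 Gy and 3.06 to 3.60 at 10 Gy, and PGR was listed at 0 in every library. For fibroblasts, which also express CTGF, 2 of 5 did (COL1A1 and PDGFRB), with sums of 4.21 to 4.29 and then 5.53 to 5.79 FPKM, while DCN and PDGFRA were at 0.0134 FPKM or below in every library. For endothelium 1 of 5 did (PECAM1), with sums of 1.31 to 1.48 and then 2.12 to 2.20 FPKM. The part of these marker levels in the values above was not tested. Genes that overlap the 9 in position were at 0.968 FPKM or below in every library, whichever strand they lie on.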

How the data were processed

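Gene expression by RNA-sequencing was compared between 6 libraries of MDA-MB-231 cells, 3 at 0 Gy and 3 at 10 Gy, grouped by the treatment in the sample labels. The authors deposited FPKM for 58735 genes, made from polyA libraries and NovaSeq paired-end reads by their sequencing provider. The submitters' processing notes name HISAT2 and GRCh38, and the counting program is not given in the sources used here. Gene coordinates in the table are those of GENCODE 29 for 100% of genes. Multiplying FPKM by gene length and implied depth gave whole reads for 100% of values (tolerance 0.05), 15643641 to 28861781 per library. Depth divided by those reads was 0.973 to 1.04, so the deposited values also hold a scaling factor per library, which is below 1 at 0 Gy and above 1 at 10 Gy. Whether counting used strand is not stated.

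Differences were fitted with limma 3.58.1 in R 4.3.3 on log2(FPKM + 1), with eBayes and a trend, over all 12128 genes whose mean reached 1 FPKM, and p-values were adjusted by Benjamini-Hochberg over all of them. The pseudocount understates changes of low genes. A gene passed at an adjusted p under 0.05, and 1.3-fold is a threshold the study uses. The procedure was tested on simulated data. The 9 genes, the gene lists and the tests were chosen with earlier results of these data known. The text names the 9 genes, their paralogues, from each list up to 4 genes past the threshold with the largest absolute log2 difference, and the 5 genes most correlated with CTGF, 1 of which is not reported here. The first neighbours of CTGF in the order of decreases were added.

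Libraries were not paired by replicate number in the main fit. Promoter windows came from RefSeq (GRCh38.p14), and exons from GENCODE 29. Alternatives covered the pseudocount, the filter, eBayes without trend, 4 scalings, the replicate block and each library left out. Python 3.11.15 with matplotlib 3.10.9 drew the figures.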

Additional observations from a re-analysis of the deposited data

How the results depend on the processing

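The 9 genes were chosen on this contrast, so how often they passed describes the settings and is no support. CTGF, CYR61, ANKRD1 and AJUBA were on the same side of the threshold on adjusted p under the 15 alternatives. AJUBA was lower by less than 1.3-fold under the 4 scalings. AMOTL2 lost its call under 9, among them the replicate block, the 4 scalings, no filter and the fits without the second library at 0 Gy, the second at 10 Gy or the third at 10 Gy. TEAD1 lost its call with no filter and without any 1 of the 3 libraries at 10 Gy, where its log2 difference was 0.26, 0.26 and 0.27. YAP1 changed sign to 0.0343 with upper quartile scaling, 0.0711 with TPM scaling and 0.0176 when scaled to the recovered reads alone, a scaling chosen after seeing the data. WWTR1 passed under the 4 scalings, and LATS2 under upper quartile (0.12) and TPM scaling (0.16). These scalings moved the median of all genes by 0.0395 to 0.115 on the log2 scale, and the split of all calls went from 2874 lower and 1443 higher to 1066 lower and 3113 higher with TPM scaling, 1444 and 2556 with upper quartile scaling, 2047 and 1945 with median-of-ratios scaling, and 1651 and 2294 with recovered reads alone. Splits of the regulator list were 5 lower and 11 higher with median-of-ratios scaling and 4 and 13 with recovered reads. For the targets these were 8 and 1, and 8 and 3, with 8 and 3 under upper quartile scaling. For the SRF list they were 5 and 2 under both, and 4 and 4 under upper quartile scaling.

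Leaving out 1 library gave between 2660 and 3993 calls over all genes against 4317, with 2705 without the first and 2660 without the second library at 10 Gy, and 5 to 7 calls for the SRF list against 8, with 5 without either of these. No filter on the mean gave 4 calls for the SRF list, among more genes tested. Over the alternatives, calls numbered 4 to 7 for the 9 genes, 9 to 19 for regulators and 8 to 11 for targets. The cause of these changes was not tested.

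The main fit did not pair libraries that share a replicate number. The correlations of their deviations were -0.0405, -0.0349 and -0.101, so no positive relation was seen. These values cannot show whether the libraries were handled as pairs. With the replicate block 3503 genes passed, and so did 5 of the 9 genes, 12 regulators, 9 targets and 8 genes of the SRF list. The lowest count behind any value of the 9 genes was 1052 reads. Whether depth or the number of libraries limits the small differences of YAP1, WWTR1 and LATS2 was not tested.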
